A study of Homo sapiens with 14 samples.

Results

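The receptor tyrosine kinases described here are 10 genes known from glioblastoma: EGFR, ERBB2, PDGFRA, PDGFRB, MET, AXL, FGFR1, IGF1R, DDR1 and DDR2. They were chosen by name from the 20992 genes named on the array. A probe was counted as theirs when the transcript that the array files assign to it belongs to the gene. This gave 14 of the 50599 non-control probes, 3 for EGFR, 2 for FGFR1, 2 for DDR1 and 1 for each of the other genes.

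The measurements came from A172 and U87, a pair of established human glioblastoma cell lines. Cells of each line were electroporated either with a control siRNA that has no target RNA or with an siRNA against exon 1 of the long non-coding RNA LINC00152, and total RNA was taken after 40 h by the labels, while the study's text gives a longer time. The 14 arrays hold 3 control and 3 siLINC00152 arrays of A172, and 4 control and 4 siLINC00152 arrays of U87. The comparison asks which transcripts respond to loss of LINC00152 in each line, and every control array comes from cells that were electroporated as well.

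Receptor tyrosine kinases are single-pass membrane proteins. In many of them, though not all, a ligand outside the cell joins receptor molecules into pairs, and their kinase domains phosphorylate each other. Adaptor proteins then couple the receptors to the RAS and ERK cascade and to PI3 kinase and AKT. In glioblastoma EGFR and PDGFRA are frequently amplified, MET and AXL are linked to invasion, and DDR1 and DDR2 differ from the others in that their ligand is collagen.

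The study lists 2 siRNAs against exon 1 of LINC00152, shown here because every response below is a response to such an oligonucleotide. The labels do not say which one was used on the arrays.
siLINC00152 #1: tgcctgtcttcagatcttcacagca
siLINC00152 #2: agtttcaaattgacattccagacaa
Each is 25 bases long. The probe of LINC00152, named CYTOR A_24_P273143 in the gene table used here, measured the knockdown. It stood between 2.44 and 2.63 in the A172 control arrays and between -0.42 and 0.23 in the siLINC00152 arrays, and between 1.71 and 1.94 against -1.21 to -0.74 in U87. It fell in all 3 pairs of A172 and all 4 of U87, to 16.3% of the control level in A172 (log2 fold change -2.61, limma adjusted p = 0.000731) and to 15.1% in U87 (log2 fold change -2.73, adjusted p = 4.96e-05). MIR4435-2HG, a nearly identical copy of the gene, has 3 probes. A_21_P0012079 fell by 2.44 in A172 (adjusted p = 0.00339, lower in 3 of 3 pairs) and by 2.97 in U87 (adjusted p = 7.13e-05, lower in 4 of 4 pairs). A_21_P0012078 gave -1.53 and -2.08 and was called only when the replicate number was in the model as a block (adjusted p = 0.0126 and 0.00446, against 1 and 0.316 without it), and A_33_P3269678 gave -0.31 in each line and was not called. Which copy each probe measures was not tested.

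All levels are the log2 of the processed signal minus the 75th percentile of the same array. A probe at 0 was as bright as the probe at that percentile, and a negative value marks a dimmer probe. That percentile lay between 131.3 and 283.7 intensity units in the A172 arrays and between 32.96 and 69.03 in the U87 arrays, and the scanner software marked 57.26% to 69.04% of spots in A172 and 35.73% to 48.28% in U87 as well above background. Fewer probes could be tested in U87 than in A172, 21921 against 28338. Brightness also depends on the probe, so levels are compared between arrays and not between genes.

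Glioma genes were checked in both lines. The probes of NES, VIM and CD44 were well above background on all 14 arrays. SOX2 was so on 6 of 6 A172 arrays and on 0 of 8 U87 arrays. GFAP had 1 probe above background on 1 of 6 A172 arrays and another on none, and S100B was above background on none. OLIG2 was above background on 6 of 6 A172 and 3 of 8 U87 arrays. SLC1A3 was so on 6 and 4 by probe A_24_P286114, but on 0 and 3 by its other probe, A_21_P0000065. The epithelial genes EPCAM and CDH1 were above background on 1 and 0 of the 14 arrays, although KRT8 had 2 probes above it on all. Genes of other lineages were mixed. CD14 and CDH5 were above background on all 14 arrays by their only probe, VWF by both of its probes, PTPRC by 1 of its 5 (A_33_P3364808) and RBFOX3 by 1 of its 2 (A_21_P0013952), and CD3E was so on 6 of 6 A172 and 6 of 8 U87 arrays. PTPRC probes A_33_P3309526, A_33_P3364821 and A_33_P3364811 were so on 6, 4 and 1 of 6 A172 arrays and on 0 of 8 U87 arrays. The probes of PECAM1, SYT1 and STMN2 were above background on 0 of 8 U87 arrays and on 0 to 6 of the 6 A172 arrays.

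Of the 14 receptor probes, 12 could be tested in A172 and 11 in U87, with 10 tested in both. Testing in a line required that 3 or more arrays of 1 of its groups had the probe well above background. A probe that met this in only 1 group was tested through that group alone, which favours a call with that group higher. PDGFRA, the receptor of platelet-derived growth factor A, was above background on 0 of 14 arrays. Its probe lay between -6.50 and -5.24 in A172 and between -4.53 and -3.38 in U87, and nothing can be said of its response. PDGFRB was above background on 6 of 6 A172 and 0 of 8 U87 arrays.

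**Figure D1:**
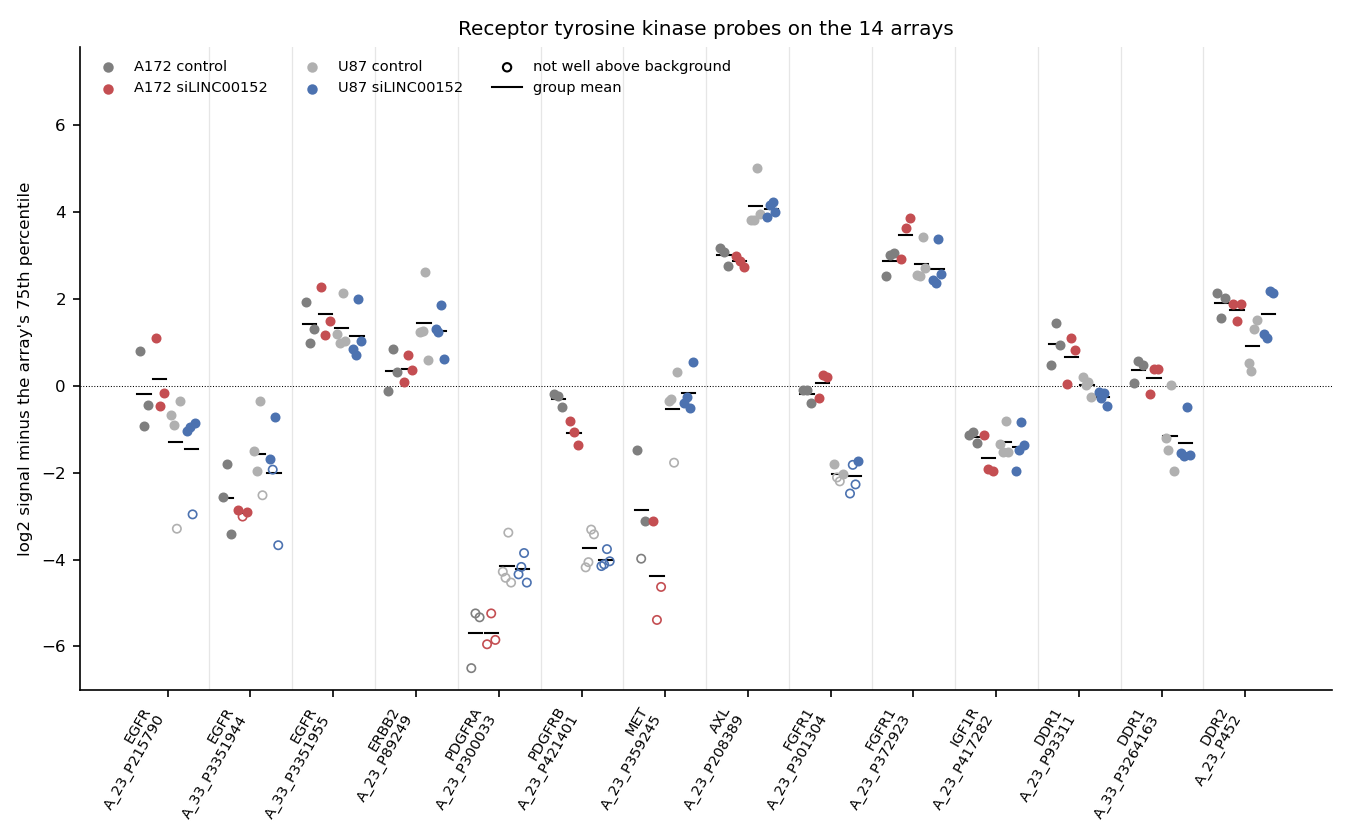
Level of each receptor probe on each of the 14 arrays, as log2 signal minus the 75th percentile of the array. Filled circles are well above background, open circles are not, and bars are group means. PDGFRA lies among the open circles in both lines and PDGFRB in U87, while every AXL value is a filled circle.

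In control cells the lines differed in several receptors. The control arrays of A172 and U87 were compared at an adjusted p under 0.05 and a log2 difference over 1 in either direction. Of the 13 receptor probes tested, 5 were called, 3 higher in A172 and 2 higher in U87, beside 31.0% of all 29095 probes tested. A difference of this size was thus common among all transcripts. All U87 arrays were on 1 slide and the A172 arrays were on 3 others, so line and slide cannot be told apart in this comparison. PDGFRB and FGFR1 A_23_P301304 entered it because they could be tested in A172, and MET because it could be tested in U87. In each case that is the line where the probe was higher, which favours a difference that way.

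PDGFRB, the receptor of platelet-derived growth factor B found on pericytes and many mesenchymal cells, was higher in A172. Its level was -0.19, -0.24 and -0.49 in the A172 controls and -4.18, -4.06, -3.31 and -3.42 in the U87 controls. The groups did not overlap, and the U87 values are background. The fitted difference was 3.44 (SE 0.26, adjusted p = 4.63e-07), a size that rests on background values in U87. With the U87 arrays set to the dimmest signal still marked as above background, the A172 level was 3.07-fold higher. That is not a lower bound, since after normexp background correction the log2 difference was only 0.68.

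MET, the receptor of hepatocyte growth factor, was higher in U87. The A172 controls stood at -1.48, -3.98 and -3.11, the second of them not above background, and the U87 controls at -0.35, -0.30, -1.77 and 0.31, the third of them not above background. U87 replicate 3 lay below the brightest A172 control. The difference was -2.33 (SE 0.63, adjusted p = 0.0106). It missed the threshold without A172 replicate 2 (-1.77, adjusted p = 0.0510) or 3 (-2.20, adjusted p = 0.0568), and without the control array of A172 replicate 2 alone (-1.77, adjusted p = 0.0599). At an adjusted p under 0.01 MET and DDR1 A_33_P3264163 were not called.

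AXL, a receptor of GAS6, was bright in both lines and brighter in U87. It stood at 3.17, 3.09 and 2.75 in the A172 controls and at 3.82, 3.82, 5.01 and 3.95 in the U87 controls, without overlap. The difference of -1.15 (SE 0.29, adjusted p = 0.00664) rested in part on U87 replicate 3. Without that pair, or its control array alone, it was -0.86 and under the threshold on the log2 difference, and without A172 replicate 3 it was -1.02 (adjusted p = 0.0529).

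The probes of FGFR1, a receptor of fibroblast growth factors, gave unlike differences as scaled here, and no test compared them. Probe A_23_P301304 averaged -0.20 ± 0.17 (SD, n = 3) in the A172 controls and -2.03 ± 0.18 (SD, n = 4) in the U87 controls, where 2 of 4 arrays were above background, a difference of 1.84 (SE 0.25, adjusted p = 8.44e-05) whose size rests in part on background values. Probe A_23_P372923 averaged 2.87 ± 0.29 and 2.80 ± 0.42, a difference of 0.07 (SE 0.33) that was not called. The files assign them to different transcripts of the gene.

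DDR1 was higher in A172 by 1 of its probes. Probe A_33_P3264163 averaged 0.37 ± 0.27 (SD, n = 3) against -1.16 ± 0.84 (SD, n = 4), a difference of 1.52 (SE 0.42, adjusted p = 0.0109), which missed the threshold without A172 replicate 3 (1.47, adjusted p = 0.0550). Its other probe, A_23_P93311, differed by 0.95 (adjusted p = 0.0204), short of the threshold on the log2 difference, and was called without A172 replicate 1 (1.18) or U87 replicate 1 (1.01) and after quantile normalization (adjusted p = 0.0108). DDR2 averaged 1.91 ± 0.30 in A172 and 0.92 ± 0.58 in U87 and fell just short as well (0.98, adjusted p = 0.0436).

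EGFR, ERBB2 and IGF1R were not shown to differ between the lines. For EGFR the probe of the full-length receptor, A_23_P215790, gave 1.12 (SE 0.71), and the probes of shorter transcripts that encode soluble forms, A_33_P3351944 and A_33_P3351955, gave -1.01 (SE 0.62) and 0.08 (SE 0.40). ERBB2, the partner of EGFR that binds no ligand of its own, gave -1.08 (SE 0.43, adjusted p = 0.0601). Leaving out U87 replicate 4 brought ERBB2 (-1.36, adjusted p = 0.0181) and EGFR A_33_P3351944 (-1.33, adjusted p = 0.0478) past the threshold, and ERBB2 was also past it without the control array of A172 replicate 2 (-1.33, adjusted p = 0.0497). Leaving out U87 replicate 3 instead made the differences smaller, at -0.69 for ERBB2, -0.60 for EGFR A_33_P3351944 and 0.46 for EGFR A_23_P215790. Without A172 replicate 3 EGFR A_33_P3351944 came to -0.60 as well, and without A172 replicate 1 EGFR A_23_P215790 came to 0.62. IGF1R, the receptor of insulin-like growth factor 1, gave 0.12 (SE 0.31).

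The calls also changed with the processing. The alternative with normexp background correction started from the median signal of a spot in place of the processed signal and added an offset of 50 intensity units, and which of these changes moved the calls was not tested. After normexp background correction only MET (-1.25) of the 5 was still called, with DDR2 (1.14) called in addition, as it was after quantile normalization (1.11), in the authors' values (1.09), and without U87 replicate 3 (1.11) or 4 (1.18) or the control array of A172 replicate 2 (1.15), while after normexp PDGFRB came to 0.68, FGFR1 A_23_P301304 to 0.54, DDR1 A_33_P3264163 to 0.74 and AXL to -0.45. AXL was also under the threshold after quantile normalization (-0.95) and in the authors' values (-0.94). FGFR1 A_23_P372923, at 0.07 as scaled here, came to 0.72 after normexp background correction (limma adjusted p = 0.0133). That was close to the 0.54 of the other FGFR1 probe, and neither was called there. The median difference over all probes tested was 0.02 as scaled here, -0.28 after normexp background correction, 0.12 after quantile normalization and 0.13 in the authors' values.

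**Figure D2:**
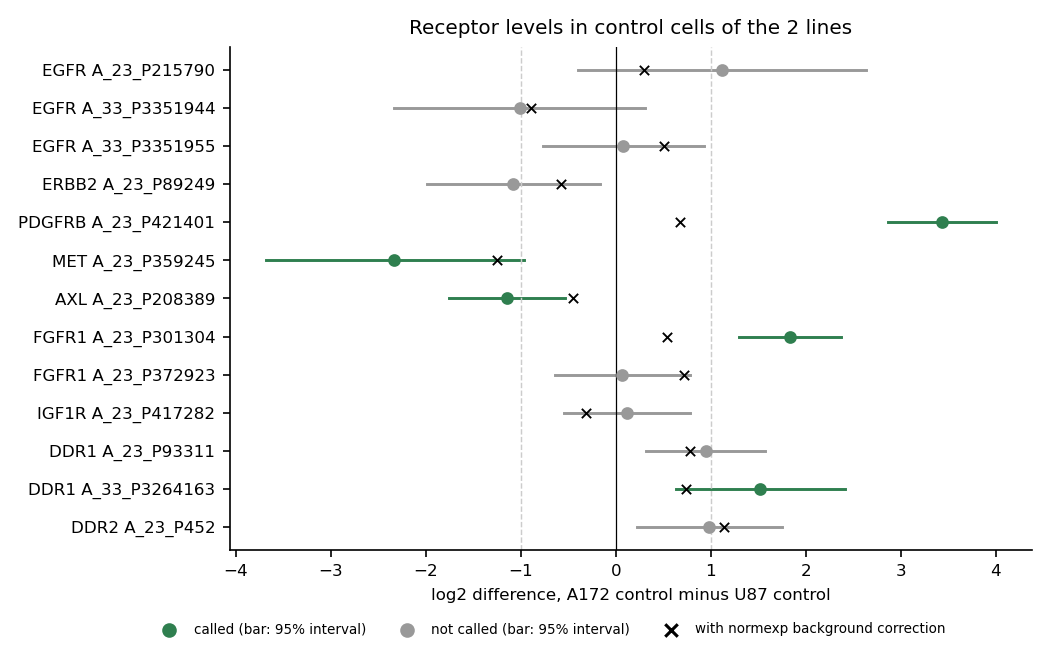
Difference in level between control arrays of A172 and of U87 for the 13 receptor probes tested, on the log2 scale. Points with bars are limma estimates with 95% intervals, green where called, dashed lines mark a difference of 1, and crosses give the estimate after normexp background correction. PDGFRB and FGFR1 A_23_P301304 lie to the right, MET and AXL to the left.

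The knockdown was then read in each line with limma, at an adjusted p under 0.2 and a log2 fold change over 0.5 in either direction. In the fit of the 4 group means, 0 of 12 receptor probes were called in A172 (1 had an unadjusted p under 0.05) and 0 of 11 in U87 (1 had an unadjusted p under 0.05). Over all probes this fit called 52 of 28338 in A172, or 0.183% (646 with an unadjusted p under 0.05), and 11 of 21921 in U87, or 0.0502% (506 with an unadjusted p under 0.05). The difference in response between the lines was called for 0 of 10 receptor probes (0 with an unadjusted p under 0.05) and for 2 of 21163 probes in all, or 0.00945%. In bulk RNA of a cell line, fewer cells with a transcript and less of it per cell cannot be told apart.

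The control and siLINC00152 arrays were paired by replicate number. Arrays of a number varied together in A172 and mostly in U87. The U87 control array 1 correlated slightly more with knockdown array 2 (0.403) than with knockdown array 1 (0.373). Each A172 replicate number was on its own slide, so replicate and slide cannot be told apart there. When the replicate number was added to the model as a block, 924 probes in A172, or 3.26%, and 918 in U87, or 4.19%, were called, among them all 52 and all 11 of the fit without it. For the difference between the lines, 89 were called, or 0.421%. Of the receptor probes, this fit called PDGFRB and FGFR1 A_23_P372923 in A172 (2 of 12), DDR2 in U87 (1 of 11) and DDR2 for the difference between the lines (1 of 10). The median log2 fold change of the receptor probes tested was -0.15 in A172 and -0.14 in U87, beside 0.02 and -0.02 over all probes.

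**Figure D3:**
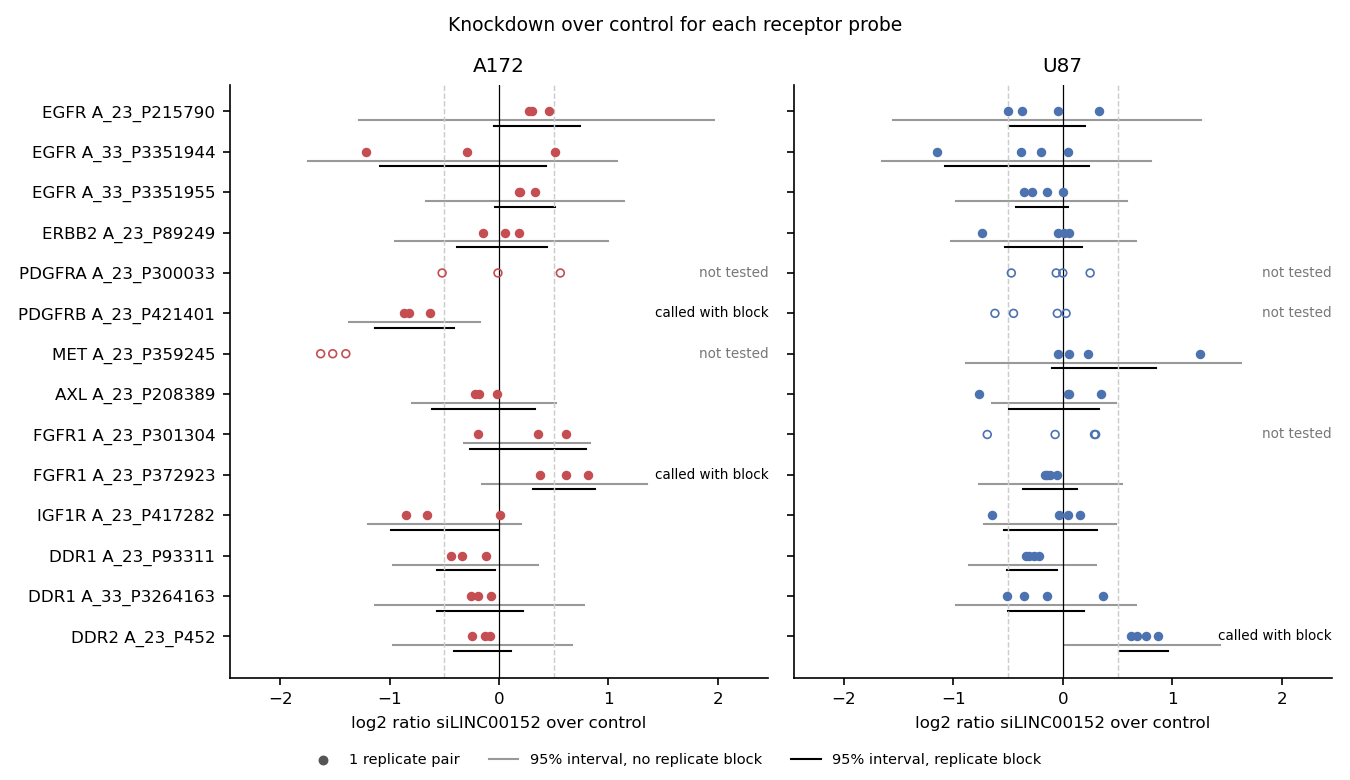
Log2 ratio of siLINC00152 over control for each receptor probe, left A172 and right U87. Circles are single replicate pairs, open where the probe was not tested in the line, and bars are 95% intervals from limma without (grey) and with (black) the replicate block. Dashed lines mark 0.5 in either direction. DDR2 lies at 0.62 to 0.87 in the 4 U87 pairs, and PDGFRB at -0.87 to -0.63 in the 3 A172 pairs.

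DDR2, a collagen receptor, was higher after knockdown in U87. The U87 control arrays read 0.52, 0.34, 1.31 and 1.52 for replicates 1 to 4, and the siLINC00152 arrays up to 2.18. The groups overlap, because replicates 3 and 4 started higher than replicates 1 and 2, but each knockdown array was above its own control, by 0.68, 0.76, 0.87 and 0.62. The mean was 0.92 ± 0.58 (SD, n = 4) in control and 1.65 ± 0.58 (SD, n = 4) after knockdown.

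The fold change of DDR2 in U87 was 0.73 on the log2 scale, or 166% of the control level. Without the replicate block its SE was 0.33 and the adjusted p was 1. With the block the SE was 0.10 and the adjusted p 0.0289, higher in 4 of 4 pairs, and DDR2 rose by that fit. In all of the 13 alternatives that kept the block it was called as well, with a log2 fold change of 0.56 to 0.77 and an adjusted p of 0.00348 to 0.158, including the fits that left out each replicate pair in turn. Of the fits without a pair, 4 left out U87 arrays, and the others left the U87 fold change at 0.73.

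In A172 DDR2 read 2.13, 1.57 and 2.01 in control and 1.89, 1.49 and 1.88 after knockdown. Each A172 pair was slightly lower after knockdown, by -0.25, -0.08 and -0.13, and the fold change of -0.15 was not called. The response in A172 minus that in U87 was -0.88, with an adjusted p of 1 without the block (SE 0.51) and of 0.151 with it (SE 0.15). That call was lost more easily than the one in U87. It was made in 4 of 12 alternatives that kept the block, over an adjusted p of 0.0129 to 0.622, and of the 7 fits without 1 replicate pair only that without U87 replicate 3 kept it (-0.84, adjusted p = 0.174). Leaving out the others gave an adjusted p of 0.435, 0.464 and 0.622 for A172 replicates 1, 2 and 3, and of 0.408, 0.424 and 0.324 for U87 replicates 1, 2 and 4. The call was also lost with no filter on dim probes (adjusted p = 0.348) and at an adjusted p under 0.05.

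PDGFRB was lower after knockdown in A172. Its control arrays read -0.19, -0.24 and -0.49 and the siLINC00152 arrays -0.82, -1.06 and -1.36, all above background and without overlap between the groups. The pairs differed by -0.63, -0.82 and -0.87. The fold change was -0.77, or 58.6% of the control level, lower in 3 of 3 pairs.

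Without the block the adjusted p of PDGFRB was 1 (SE 0.28, unadjusted p 0.0158 from limma). With the block it was 0.0827 (SE 0.16), a call that 5 of 13 alternatives kept, over an adjusted p of 0.00343 to 0.433. Those 5 were each line fitted by itself and the fits without a U87 replicate, which leave the A172 fold change at -0.77. The call was lost without A172 replicate 1 (-0.84, adjusted p = 0.252), 2 (-0.75, adjusted p = 0.396) or 3 (-0.72, adjusted p = 0.433), after quantile normalization (-0.79, adjusted p = 0.205), in the authors' values (-0.77, adjusted p = 0.300), with no filter on dim probes (adjusted p = 0.204) and at an adjusted p under 0.05. After normexp background correction the fold change of -0.46 was under the threshold although the adjusted p was 0.00343. The direction was the same in all of these. In U87 PDGFRB was not tested, and with no filter on dim probes its U87 value was -0.27 (adjusted p = 0.605 with the block).

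FGFR1 was higher after knockdown in A172 by 1 of its probes. Probe A_23_P372923 read 2.53, 3.02 and 3.06 in the control arrays and 2.91, 3.63 and 3.87 in the siLINC00152 arrays. The lowest knockdown array lay within the control range, but the pairs differed by 0.37, 0.61 and 0.81. The fold change was 0.60, or 151% of the control level, higher in 3 of 3 pairs.

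Its adjusted p was 1 without the block (SE 0.35) and 0.0848 with it (SE 0.12). The call held in 9 of 13 alternatives with the block, over an adjusted p of 0.00616 to 0.471. Among those 9 are the fits without a U87 replicate, which leave the A172 fold change at 0.60. Of the 3 fits without an A172 replicate, 1 kept the call. It was lost without A172 replicate 2 (0.59, adjusted p = 0.396) or replicate 3 (0.49, adjusted p = 0.471) and with no filter on dim probes (adjusted p = 0.236), and at an adjusted p under 0.05. In U87 the same probe was slightly lower in 4 of 4 pairs, with a fold change of -0.12 that was not called. The response in A172 minus that in U87 was 0.71, with an adjusted p of 0.291 with the block, so the lines were not shown to differ, and it was called in 1 alternative, normexp background correction (0.60, adjusted p = 0.0448).

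The other probe of FGFR1, A_23_P301304, read -0.09, -0.10 and -0.39 in the A172 controls and -0.28, 0.26 and 0.21 after knockdown. Its pairs went both ways, at -0.19, 0.36 and 0.61, and its fold change of 0.26 was not called. A rise of FGFR1 therefore rests on a single probe.

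MET could not be tested in A172, since only 2 of 3 control arrays and 1 of 3 knockdown arrays were above background. The control arrays read -1.48, -3.98 and -3.11 and the knockdown arrays -3.11, -5.39 and -4.63. Each pair was lower after knockdown by a similar amount, at -1.63, -1.40 and -1.52, although the controls themselves spread over more than that. The estimate was -1.52 (SE 0.68), and its size rests in part on values that are not above background.

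With no filter on dim probes MET in A172 had an adjusted p of 1 without the block and of 0.0823 with it, lower in 3 of 3 pairs, and was called there. In U87 MET read -0.35, -0.30, -1.77 and 0.31 in control and -0.39, -0.25, -0.52 and 0.54 after knockdown. Only the third pair moved by more than 0.23, at 1.25 from a control not above background, and the fold change of 0.37 (SE 0.59) was not called. Without that pair it was 0.08 in the fit with the block. The difference between the lines, -1.89 with no filter on dim probes, had an adjusted p of 0.269 with the block and was not called.

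**Figure D4:**
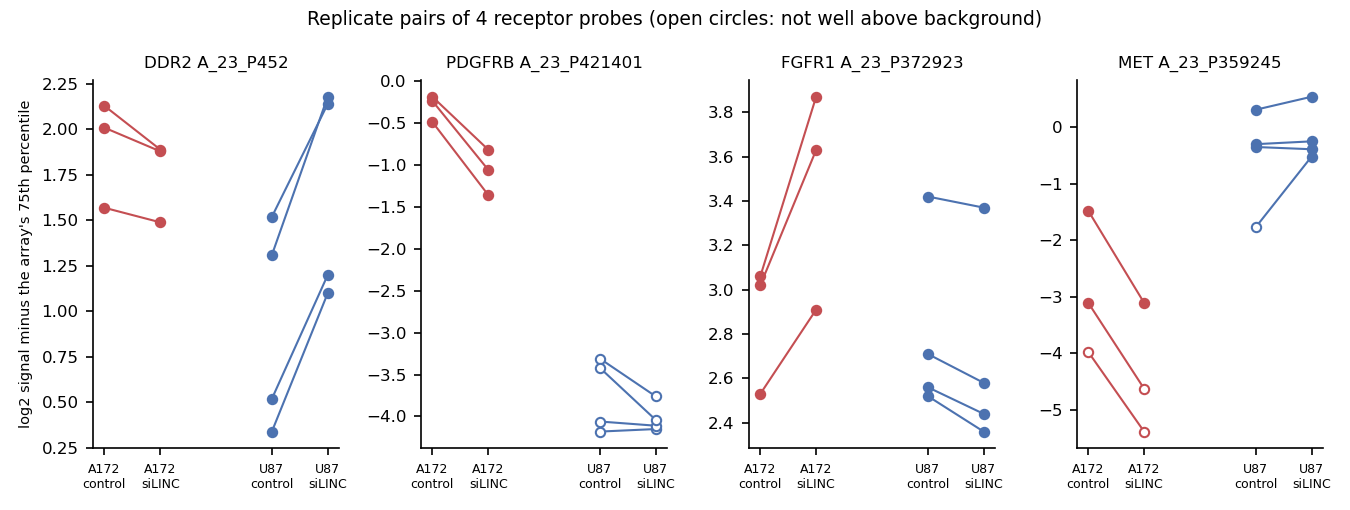
Levels of DDR2, PDGFRB, FGFR1 A_23_P372923 and MET in control and siLINC00152 arrays, red for A172 and blue for U87, as log2 signal minus the 75th percentile of the array. Lines join arrays of a replicate number, and open circles are not well above background. The slopes are nearly parallel for DDR2 in U87 and for PDGFRB and MET in A172, although the controls start at different levels.

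EGFR was not called in either line by any of its probes. The full-length probe A_23_P215790 read 0.81, -0.92 and -0.45 in the A172 controls and 1.09, -0.46 and -0.16 after knockdown, higher in 3 of 3 pairs. Its spread between replicates was larger than the fold change of 0.34 (SE 0.76, adjusted p 0.581 with the block). A_33_P3351955 was higher in 3 of 3 A172 pairs too, at a fold change of 0.23, and A_33_P3351944 in 1 of 3, at -0.33. With the block that value was 0.11 without A172 replicate 2 and -0.75 without A172 replicate 3, and 2 of 3 knockdown arrays were above background. In U87 the fold changes of A_23_P215790, A_33_P3351955 and A_33_P3351944 were -0.14, -0.19 and -0.42, each lower in 3 of 4 pairs. The last of these was -0.18 without U87 replicate 4 in the fit with the block, and 2 of 4 knockdown arrays were above background. The difference between the lines was not called for any of the 3 probes (adjusted p of 0.541 to 0.964 with the block).

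ERBB2 has 10 spots on each array, of which 7 to 10 were used. Its fold change was 0.03 in A172 (SE 0.46, 95% interval -0.95 to 1.00) and -0.18 in U87 (SE 0.39, 95% interval -1.02 to 0.67). With the block the intervals were -0.38 to 0.44 and -0.53 to 0.18. The U87 pairs read 0.06, -0.04, -0.74 and 0.01, and without replicate 3 the U87 value was 0.01 in the fit with the block. ERBB2 was not shown to differ, and these intervals give the sizes that the arrays still allow.

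AXL lay at 2.99, 2.87 and 2.74 after knockdown in A172 and at 3.88, 4.17, 4.23 and 4.01 in U87. The fold changes were -0.14 and -0.08, neither called. With the block the 95% intervals were -0.61 to 0.33 and -0.49 to 0.33. The A172 pairs read -0.18, -0.22 and -0.02. In U87 replicate 3 read -0.77 and the other pairs read 0.05, 0.35 and 0.06, and without the control array of that pair the U87 value was 0.21.

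IGF1R read -1.14, -1.07 and -1.31 in the A172 controls and -1.13, -1.92 and -1.97 after knockdown. Replicates 2 and 3 were lower and replicate 1 was not, and the fold change of -0.50 (SE 0.33, adjusted p 0.449 with the block) was not called. In U87 it was -0.12 with 2 of 4 pairs lower, and 0.06 without U87 replicate 1 in the fit with the block. DDR1 A_23_P93311 was lower in all 7 pairs, at a fold change of -0.30 in A172 and -0.28 in U87, but under the threshold on the fold change and at an adjusted p of 0.378 and 0.231 with the block. DDR1 A_33_P3264163 gave -0.17 and -0.15, lower in 3 of 3 and 3 of 4 pairs, and was not called.

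Genes around the receptors were read from lists of ligands, sheddases and growth factor binding proteins, other receptor tyrosine kinases, adaptors and signalling enzymes, negative regulators, and genes induced by ERK. Without the block limma called 0 of their 136 probes tested in A172 and 0 of 106 in U87 (10 and 3 had an unadjusted p under 0.05). With the block it called 10 of 136 in A172, 4 higher and 6 lower, and 6 of 106 in U87, 3 higher and 3 lower, beside the 3.26% and 4.19% of all probes called by the same fit. No test compared a list with all probes, and several lists below hold only 1 or 2 calls. The median log2 fold change of these probes was 0.02 in A172 and 0.00 in U87. The calls below are from the fit with the block, and the adjusted p of each was 0.276 or more without it.

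Among the ligands of the EGF family, 1 of 6 probes tested in U87 was called and 0 of 6 in A172 (0 had an unadjusted p under 0.05). HBEGF, which binds EGFR, read -1.99, -1.65, -3.44 and -1.07 in the U87 controls and -0.15, 0.12, -2.76 and 0.02 after knockdown. It rose in 4 of 4 pairs by 1.35 (SE 0.40, adjusted p = 0.178), but only 2 of 4 control and 3 of 4 knockdown arrays were above background, so that size rests in part on background values. HBEGF was tested through its knockdown arrays alone, the brighter group, and such a filter favours a rise. Of the 7 fits without a replicate pair only that without A172 replicate 1 kept the call (adjusted p of 0.0940 to 0.353). HBEGF was not tested in A172.

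Among the other ligands 2 of 20 probes were called in A172 and 2 of 11 in U87, in each line 1 higher and 1 lower. COL1A2, a chain of collagen type I and thus of a ligand of DDR2, rose in U87, from 0.42, 0.55, 0.72 and 1.59 to 1.33, 1.48, 1.95 and 2.33. Each U87 array after knockdown was above its control, at a fold change of 0.95 (SE 0.14, adjusted p = 0.0365), and the call was kept in the 7 fits without a pair (adjusted p of 0.0443 to 0.168). Only 4 of these fits left out a U87 pair. COL1A2 was much brighter in A172, between 5.28 and 6.04, where its fold change of 0.17 was not called.

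FGF1, a ligand of FGFR1, fell in U87 in 4 of 4 pairs by 0.54 (adjusted p = 0.0710), a call lost without U87 replicate 1, 2 or 4 (up to an adjusted p of 0.241). In A172 PDGFD, a ligand of PDGFRB, rose in 3 of 3 pairs at a fold change of 1.17 (adjusted p = 0.199). PDGFA A_23_P113701 fell in 3 of 3 pairs by 1.15 (adjusted p = 0.122), a size that rests in part on background values, since 1 of 3 knockdown arrays was above background. This probe was tested through its control arrays alone, the brighter group, and such a filter favours a fall. Both calls were easily lost. That of PDGFD went without A172 replicate 1, 2 or 3 or U87 replicate 1 (up to an adjusted p of 0.618) and that of PDGFA without A172 replicate 2 or 3 (up to 0.530). Another probe of PDGFA, A_33_P3372666, gave 0.10 in A172 and was not called.

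Of the sheddases and binding proteins, 2 of 10 probes were called in A172 and 0 of 11 in U87 (3 had an unadjusted p under 0.05 with the block). IGFBP5, a binding protein of insulin-like growth factors, read -3.10, -0.23 and -1.11 in the A172 controls and -1.00, 1.66 and 0.95 after knockdown. The replicates started far apart and rose by nearly the same step, 2.10, 1.90 and 2.06. The fold change was 2.02 (SE 0.15, adjusted p = 0.00312), the largest in the lists, and was called in the 7 fits without a pair (adjusted p of 0.00403 to 0.0584). Only 3 of these fits left out an A172 pair. IGFBP5 was not tested in U87.

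ADAM17, the protease that releases HBEGF and other EGF family ligands from the membrane, fell in A172. It read 1.74, 0.76 and 1.51 in control and 0.12, -0.23 and 0.37 after knockdown, without overlap, at a fold change of -1.25 (SE 0.17, adjusted p = 0.0201). The call was kept in the 7 fits without a pair, of which 3 left out an A172 pair. In U87 it was lower in 4 of 4 pairs as well, at -0.47 (adjusted p 0.197 with the block), under the threshold on the fold change.

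The other receptor tyrosine kinases, 31 genes with 47 probes and without the Eph receptors, had 0 of 27 probes called in A172 and 0 of 18 in U87 in both fits. With the block 3 and 2 of them had an unadjusted p under 0.05, and without it 0 and 0. No further receptor of this kind was shown to respond in either line by these arrays.

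Adaptors and signalling enzymes gave 4 calls among 38 probes in A172 and 2 among 31 in U87, where the shares over all probes were 3.26% and 4.19%. MAP2K1, the kinase MEK1, fell in both lines. It read 0.70, 0.38 and 0.02 in the A172 controls and -0.45, -0.13 and -1.02 after knockdown, and 1.58, 1.87, 0.95 and 2.05 against 0.69, 0.87, 0.25 and 1.15 in U87. All 7 pairs were lower, at a fold change of -0.90 (adjusted p = 0.0410) in A172 and -0.87 (adjusted p = 0.0404) in U87. The call in A172 was lost without A172 replicate 1 or 3 (up to an adjusted p of 0.304), and that in U87 was kept without each pair.

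Further A172 calls were GAB2, an adaptor, at 0.87 (adjusted p = 0.148, higher in 3 of 3 pairs) and PLCG1, a phospholipase, at -0.53 (adjusted p = 0.183, lower in 3 of 3 pairs). GAB2 was lost without U87 replicate 2 or any A172 replicate (up to an adjusted p of 0.545), and PLCG1 in every fit without a pair except that without U87 replicate 3 (up to 0.701).

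Of the negative regulators 1 of 24 probes was called in A172 and 0 of 18 in U87 (2 had an unadjusted p under 0.05 with the block). SOCS2 fell in A172 by 0.94 in 3 of 3 pairs (adjusted p = 0.0471), a call lost without A172 replicate 1 or 3 (up to an adjusted p of 0.294). Of the genes induced by ERK 1 of 15 was called in A172 and 1 of 16 in U87. IER3 A_33_P3423551 rose in A172 by 0.61 (adjusted p = 0.0932) in 3 of 3 pairs, lost without each A172 replicate (up to an adjusted p of 0.460), and was lower in 4 of 4 U87 pairs, at -0.31, where it was not called. The difference of 0.92 between the lines was called (adjusted p = 0.187), but of the 7 fits without a pair only that without U87 replicate 3 kept it (up to an adjusted p of 0.721). MAFF rose in U87 by 0.63 (adjusted p = 0.0902) in 4 of 4 pairs, lost without U87 replicate 1, 2 or 4 (up to an adjusted p of 0.241). DUSP6, a phosphatase of ERK, gave 0.64 in A172 and -0.49 in U87 and was not called. The difference between the lines was called for 1 of the 97 list probes tested in both, IER3, so the other list genes were not shown to respond differently in A172 and U87. Among the list calls, normexp background correction lost those of HBEGF, PDGFA, FGF1, PLCG1, SOCS2 and MAFF, and quantile normalization and the authors' values each lost those of PDGFD, GAB2 and SOCS2 and that of the difference for IER3.

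**Figure D5:**
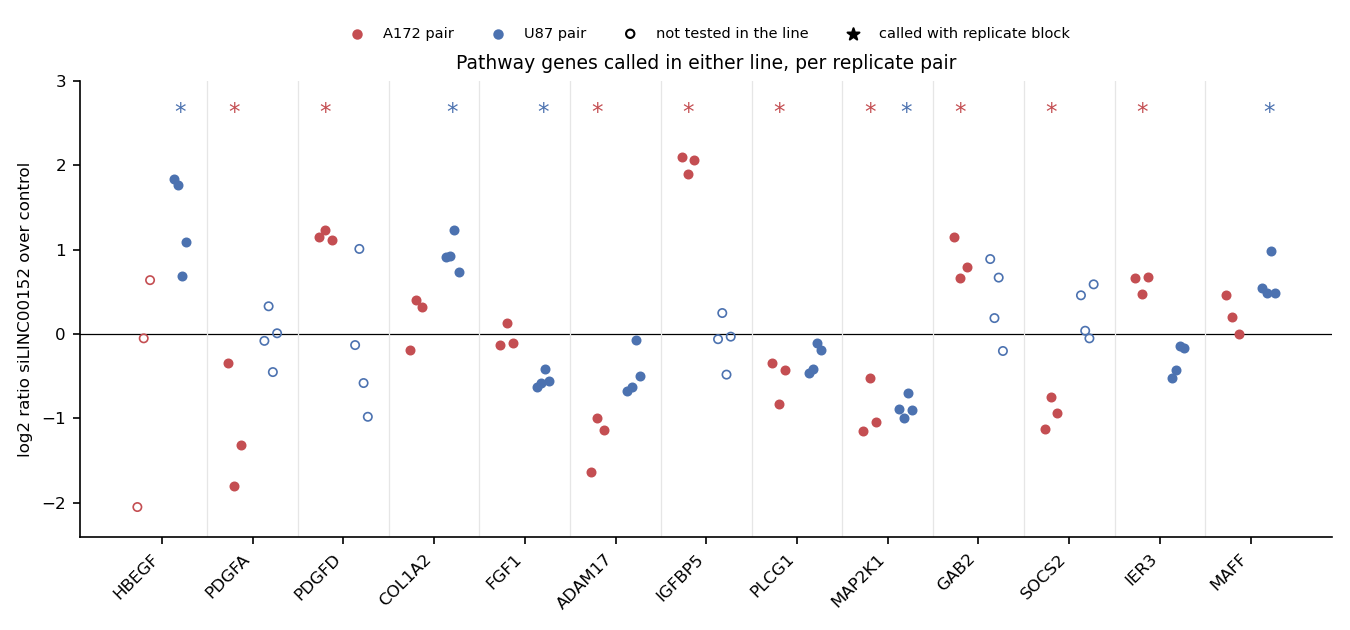
Log2 ratio of siLINC00152 over control in each replicate pair for 13 of the list genes called in either line with the replicate block, red for A172 and blue for U87. Open circles mark a line in which the probe was not tested, and asterisks mark calls. MAP2K1 is below 0 in all 7 pairs, and IGFBP5 stands at 1.90 to 2.10 in A172.

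The probes whose 7 pair ratios were most like those of a called receptor were looked up among probes of named genes tested in both lines. The measure was the root mean square difference over the 7 ratios, with 14939 candidates for DDR2 and FGFR1 and 14940 for PDGFRB. For DDR2 they were DDB2 and TMEM30A, at 0.17 each beside a median of 0.63. For FGFR1 A_23_P372923 they were RNASET2 at 0.10 and CNST at 0.11, beside a median of 0.52. For PDGFRB they were ZMIZ1 and KLHL22 at 0.19 each, beside a median of 0.68, with the U87 ratios of PDGFRB being those of a probe at background.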

How the data were processed

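The 14 arrays were 1-colour (Cy3) Agilent arrays. Per the file headers, Agilent Feature Extraction 11.5.1.1 made 1 file per array, with processed and median signal as linear intensity and with flags (other values, 0 or 1) for spots above background, saturated or uneven. The authors also deposited log2 values that were equal in distribution across arrays. Here the log2 processed signal was set against the 75th percentile of each array, uneven and outlying spots were left out and spots of a probe averaged. Probes were named by matching their transcript to a gene table, which named 29033 of 50599. limma 3.58.1 in R 4.3.3 fitted 4 group means, with Benjamini-Hochberg adjustment over all probes tested, and was tested on simulated data. The named genes are all probes of the 10 receptors, the LINC00152 probe, from each list up to 4 called probes with the largest fold change in either fit, and 2 probes most like each called receptor. Members and lists were chosen with earlier results of these data known. A called list gene is counted in its list but not reported here. DUSP6 and the other PDGFA probe were named after their values were seen. Control and siLINC00152 arrays of a replicate number deviated together from their group means (correlation 0.675 to 0.794 in A172 and 0.373 to 0.864 in U87). Arrays of unlike numbers gave -0.701 to -0.0434 in A172 and -0.772 to 0.411 in U87. The set numbers of the labels were used as pairs, although in U87 the ranges overlap through replicate 1. Alternatives were normexp background correction of the median signal, quantile normalization, the authors' values, other filters and thresholds, each line by itself, the replicate block, and leaving out arrays or pairs.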

Additional observations from a re-analysis of the deposited data

Results flagged for a closer look

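In 3 of the 24 receptor groups of 4 U87 arrays tested, 1 array lay far from the others, where chance gives about 1 in 20 groups (5%). Each was an array of U87 replicate 3. EGFR A_23_P215790 was -2.96 in the siLINC00152 array of that replicate, beside -1.04 to -0.85 in the others. Its control array was low as well, at -3.29 beside -0.91 to -0.35, and the probe was not above background in either array of that pair. AXL was 5.01 in the control array, beside 3.82 to 3.95. DDR1 A_33_P3264163 was -0.49 in the siLINC00152 array, beside -1.61 to -1.55. The U87 replicate 3 arrays had the lowest 75th percentiles of the series, 32.96 and 42.61, and the fewest spots well above background, 35.73% and 40.42%, and the part of this in the values was not tested. The U87 fold change of EGFR A_23_P215790, -0.14 with all arrays, was 0.36 without the siLINC00152 array of replicate 3, -0.80 without its control array and -0.30 without the pair. That of DDR1 A_33_P3264163, -0.15 with all arrays, was -0.43, 0.24 and -0.04 in the same order, and that of AXL, -0.08 with all arrays, was -0.13, 0.21 and 0.15. None of these was called.

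The response of DDR2 to knockdown differed between the lines in the fit with the replicate block, by -0.88 (A172 minus U87, limma adjusted p = 0.151, over an adjusted p of 0.0129 to 0.622 in the alternatives), with all 3 pairs of A172 lower and all 4 of U87 higher. Without the block the adjusted p was 1.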

How the results depend on the processing

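The alternatives that add another choice to the replicate block were chosen after seeing the data. No called result changed sign in any alternative that was run, 1294 of the values of single probes stayed on their side of the threshold or within the spread between replicates, 61 passed the threshold and 7 moved by more than that spread. The counts of calls were less stable, with 123 marked as moved and 198 as the same. The replicate block gave 924 calls in A172 (2 receptor probes), 918 in U87 (1), 89 for the difference between the lines (1) and 16 among the pathway lists, and it called no other receptor probe. With the block, quantile normalization gave 728 (1), 746 (1) and 54 (1), normexp background correction 636 (1), 142 (1) and 463 (2), the authors' values 679 (1), 635 (1) and 51 (1), no filter on dim probes 587 (1), 330 (1) and 20 (0), a stricter FDR 270 (0), 112 (1) and 8 (0), and each line fitted by itself 1612 (2) and 676 (1). Without the block, normexp background correction gave 133 calls in A172, 4 in U87, 1 for the difference between the lines and 4529 for the control levels (2 receptor probes). Quantile normalization and the authors' values gave 1 for the difference between the lines, no filter on dim probes 34 in A172 and 22635 for the control levels, each line fitted by itself 14 in A172, and a stricter FDR 27 in A172, 7 in U87, 1 for the difference and 3 receptor probes for the control levels. The cause was not tested. Leaving out an array or a pair without the block gave 4 to 127 calls in A172, 5 to 17 in U87 and 0 to 2 for the difference (0 receptor probes in each), and 6690 to 9559 for the control levels (2 to 8 receptor probes). Leaving out a pair with the block gave 226 to 1411 calls in A172 (0 to 2), 275 to 755 in U87 (1) and 2 to 101 for the difference (0 to 1). The highest A172 count (1411) and the highest for the difference (101) came without U87 replicate 3. Slide as a random block gave 7070 calls for the control levels, with the same 5 receptor probes. Signal over background limits what can be read of PDGFRA in both lines, of PDGFRB and FGFR1 A_23_P301304 in U87 and of MET in A172, none of which could be tested there.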
